A study of Mus musculus with 37 samples.

Results

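The genes described here are 10 genes of the NRF2 antioxidant response, Nfe2l2, Keap1, Hmox1, Gclc, Gclm, Txnrd1, Nqo1, Srxn1, Txn1 and Prdx1, as they appear in the list of translated open reading frames (ORFs) of mouse bone marrow-derived dendritic cells. Members were all listed ORFs that carry one of these gene names. They numbered 17 of the 22367 ORFs, in 10 of the 10418 families, a family being all listed ORFs with one transcript name. Each of the 10 genes had exactly 1 family, and no other family overlapped its locus or carried one of its older names.

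The list was made from ribosome footprints, the pieces of mRNA left after nuclease digestion because a ribosome covered them, of C57BL/6J cells from mice of 6 to 8 weeks. Cycloheximide, which stops elongating ribosomes, was used at 100 µg/mL for 1 min in 16 libraries of lipopolysaccharide (LPS) at 100 ng/mL, in 8 mock-treated libraries (both over 8 times from 0.5 to 12 h) and in 2 naive libraries. No inhibitor was used in 8 further LPS libraries over the same times and in 1 naive library. One LPS library of mixed times was made with harringtonine (1 µg/mL, 5 min) and another with lactimidomycin (50 µg/mL, 30 min), drugs that enrich ribosomes at sites of initiation. LPS comes from the outer membrane of Gram-negative bacteria and is sensed by a Toll-like receptor. The 37 libraries share one list that holds no value per library, so the response of these genes to LPS, mock or inhibitor was not measured here, library depths are unknown and no value has a replicate. Each value below therefore describes the list as the authors deposited it, with the authors' score as the one measurement per ORF.

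The label of the cells was compared with the presence of marker families. Of 15 dendritic cell markers, 13 had a family, among them Itgax, Cd74, Zbtb46 and Irf8, while Flt3 and Cd209a had none. All 6 macrophage and all 8 neutrophil markers had a family too, as did 2 of 3 mast cell markers, 1 of 4 B cell markers and none of 3 T cell markers. The part that other cell types of the culture had in the listed ORFs was not tested.

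NRF2, the product of Nfe2l2, is a transcription factor that KEAP1 holds in the cytoplasm and directs to degradation by a cullin-3 ubiquitin ligase. Oxidants and electrophiles modify cysteines of KEAP1, NRF2 then accumulates, pairs with a small MAF protein and binds antioxidant response elements in the promoters of genes for heme breakdown, glutathione synthesis and the thioredoxin system. In myeloid cells this program is known to restrain inflammatory cytokine genes and to protect cells from the oxidants they make.

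The core letters of the antioxidant response element were searched in the RefSeq promoter windows of the members, because this element is the NRF2 binding site. The members are known as NRF2 response genes, so matches among them are a description and no independent finding. Windows run from 250 bases before to 50 bases after a gene's start in the GRCm38.p6 build, a different build from that of the ORF list. The motif was TGACNNNGC on either strand. Each match is shown 5′ to 3′ on the strand of the motif, with 10 bases on either side and the motif in capitals.
Nfe2l2: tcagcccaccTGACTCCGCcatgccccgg
Gclm: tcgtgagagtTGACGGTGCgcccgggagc
Txnrd1: cgtgtcagaaTGACAAAGCaaaaatccag
Srxn1: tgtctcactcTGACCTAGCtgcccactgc
Prdx1: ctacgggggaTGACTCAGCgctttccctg

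Windows were found for 8 of the 10 genes, and 5 of the 8 (62.5%, exact Clopper-Pearson interval at the 95% level of 24.5 to 91.5%) held a match; Hmox1 and Gclc had no window in the table. Of 39 other redox genes with a window, from the pathway list described further on, 10 held a match (25.6%, interval 13.0 to 42.1%). A match was present for 14% of all genes with a window, for 17.3% of the genes that have both a window and an ORF family, and in 12.4% of all windows. The match of Nfe2l2 lay 240 bases before the gene start (chr2:75704885-75704913, minus strand) and ran in the direction of the gene. Those of Gclm (134 bases before the start, chr3:122245413-122245441), Prdx1 (133 bases before, chr4:116685456-116685484) and Txnrd1 (92 bases before, chr10:82859104-82859132) ran against the gene and are shown on the minus strand. The Srxn1 match lay 28 bases after the start (chr2:152105542-152105570, minus strand), and Txnrd1 had the match in 1 of its windows. Nqo1, Keap1 and Txn1 held none in these windows. The Prdx1 match holds the letters TGACTCA, a motif of AP-1 factors that overlaps this core. Counted by window, TGACTCA on either strand was present in 2 of the members' 10 windows, those of Prdx1 and Srxn1, and in 5.2% of all windows. A match is a description of letters, and binding was not measured here.

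The first pair of genes is the switch itself. Nfe2l2 was listed with a single ORF of 597 residues (chromosome 2, 75514018 to 75542465, minus strand, mm9, counted from 1), with a score of 985. Only 10.0% of families had a longest ORF with a higher score. It was coded by 5 exons, behind a leader of 233 bases, the leader being the part of the listed transcript before the start codon. The listed transcript had 442 bases after the stop, the fewest of the 10 members, and 75.8% of families had more.

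Keap1, the sensor that binds NRF2, was listed with 2 ORFs that share a stop codon on chromosome 9. The ORF of 624 residues (21035146 to 21042153, minus strand) scored 936. A second in-frame start lay 41 residues inside it and gave an ORF of 583 residues with a score of 593, a difference of -343 from the longer ORF. The higher score was thus on the longer ORF. Keap1 also had the longest leader of the 10 longest ORFs, 1623 bases on the listed transcript with no splice junction in it, and 3.32% of families had a longer one. No upstream ORF was listed in it. Of the 650 families with a leader of 1000 bases or more, 43.8% had an upstream ORF listed.

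Hmox1 encodes heme oxygenase-1, which degrades heme to biliverdin, iron and carbon monoxide. It was listed with a single ORF of 289 residues (chromosome 8, 77617649 to 77623918, plus strand) that scored 973. Its 5 exons carried a leader of 272 bases, close to those of Nfe2l2 and Gclc, and 3377 bases after the stop. This was the longest such stretch among the longest ORFs of the member genes. Of all families, 13.0% had more bases after the stop.

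Nqo1, a quinone reductase that spends NADPH or NADH to reduce quinones, was listed with ORFs of 274 and 264 residues (chromosome 8, 109912719 to 109926972, minus strand). Both had the same start and stop and the same score, 985. The shorter lacked 30 coding bases of the longer, which were cut from one exon border, so the pair differ by splicing and not by the start codon. Over the whole list, ORFs of a family with a common start had equal scores at 2053 of 2749 such starts (74.7%). How scores were assigned to ORFs with one start is not known.

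**Figure D1:**
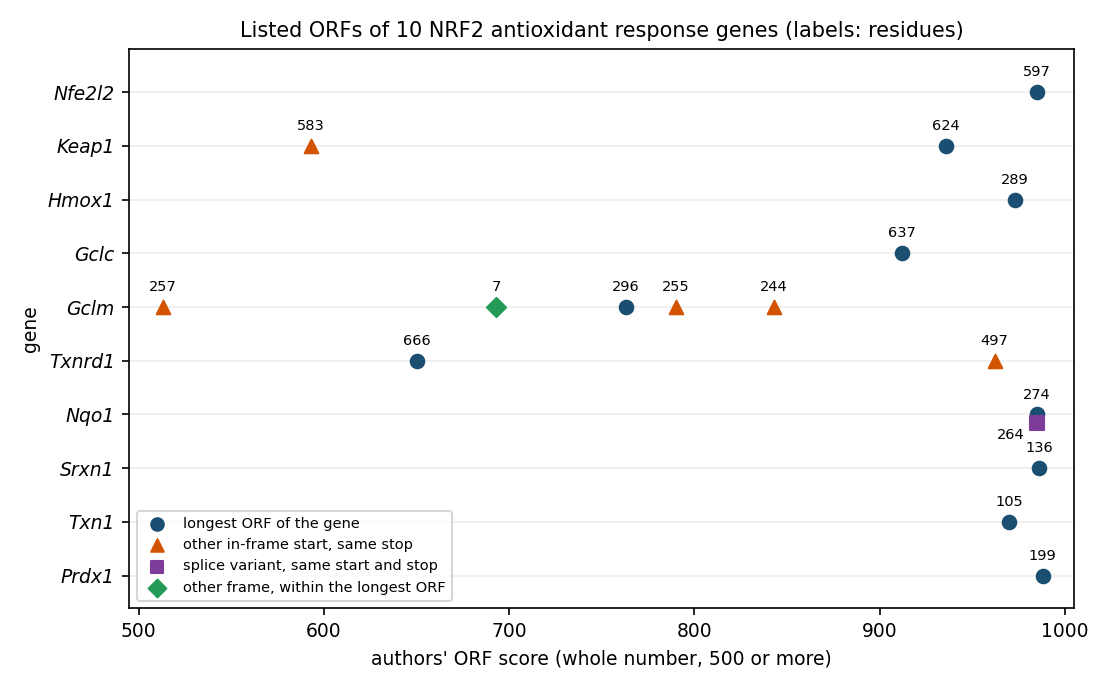
The horizontal axis is the authors' score of each of the 17 listed ORFs, rows are the 10 genes, the symbol gives the kind of ORF and the number beside it the residues. Longest ORFs lie at 912 or above except in Gclm (763) and Txnrd1 (650), and only Gclm has 5 ORFs.

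The next pair makes glutathione. Glutamate-cysteine ligase, which carries out the rate-limiting step, consists of a catalytic subunit (Gclc) and a modifier subunit (Gclm). Gclc was listed with a single ORF of 637 residues (chromosome 9, 77602617 to 77641058, plus strand) in 16 coding exons. Its score of 912 was the lowest among the members with a single ORF, and 53.6% of families had a higher one for their longest ORF. The modifier subunit looked different in the list.

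Gclm had 5 ORFs, the most of any member, on chromosome 3. Of these, 4 ended at the same stop codon on the plus strand, at position 121969315. The longest began at 121948838, gave 296 residues and scored 763. The next start, 39 residues inside it, gave 257 residues with a score of 513, the lowest score of all 17 ORFs. Only 2 residues further, a start at 121948961 gave 255 residues with a score of 790. The innermost start, at 121948994, gave 244 residues and had the highest score of the 4, 843. Scores therefore did not follow length in Gclm, and the starts furthest inside scored above the longest ORF by 27 and 80. The ORFs of 257 and 255 residues were on a listed transcript with 4306 bases after the stop. Those of 296 and 244 residues were on one with 818, so some of these scores compare transcript models as well as starts. All 4 starts lay in the first of 7 exons. As many as 3 or more other in-frame starts occurred in 1.89% of families, and Gclm was the single member among them. Which of the starts begins the protein known as GCLM was not tested.

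The remaining Gclm ORF had 7 residues and a score of 693 (121958471 to 121958494). It lay on a different listed transcript, of 3 exons, that begins after the other starts. The leader of this ORF was 8959 bases long with no splice junction in it. All 24 coding bases of the 7-residue ORF fell inside the 296-residue ORF in another frame. An ORF within the span of the longest was listed in 8.62% of families and in no other member. The same count of ORFs in every class as in Gclm was listed in 6 other families, or 0.0576% of the list. Nearest of these in length were Gpr18 (347 residues), Bnip2 (389) and Trim36 (727). Such a match asks for equal counts in all classes at once. How rare it is for other families with as many ORFs was not counted.

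**Figure D2:**
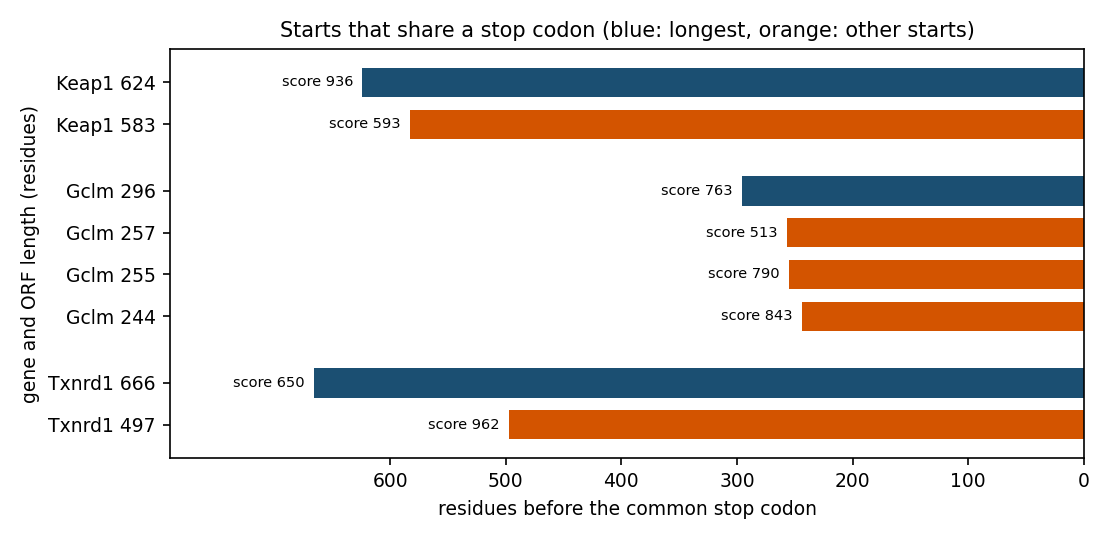
Bars run from each listed start to the shared stop codon, in residues, for Keap1, Gclm and Txnrd1, with the authors' score beside each bar; blue is the longest ORF and orange the other in-frame starts. The longest ORF has the highest score in Keap1 (936 against 593) and not in Gclm (763 against 843) or Txnrd1 (650 against 962).

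The thioredoxin system supplied 4 members. Thioredoxin reductase 1 (Txnrd1) passes electrons from NADPH to thioredoxin (Txn1), which reduces disulfides in peroxiredoxin 1 (Prdx1), an enzyme that removes hydrogen peroxide. Sulfiredoxin (Srxn1) restores peroxiredoxins whose active cysteine has been overoxidized.

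Txnrd1 was listed with 2 ORFs that share a stop codon on chromosome 10, at position 82358784 on the plus strand. The ORF of 666 residues began at 82322020 with a score of 650, the lowest of the 10 longest ORFs, and 88.4% of families had a higher score there. The ORF of 497 residues began at 82337394 and scored 962, so the shorter ORF was 312 above the longer. Of the 3147 other in-frame starts in the list that are a codon of the longest ORF, 8.42% exceeded their longest ORF by more than 312. The 169 residues between the starts were also a wide interval, with 12.0% of such starts lying deeper and a median of 27 residues over the list. The 2 ORFs were on different transcripts. That of the 497-residue ORF began after the 666-residue start, had a leader of 672 bases with 1 junction, and had a further junction 831 bases after the stop, while that of the 666-residue ORF had a leader of 69 bases, the shortest among the members, and no junction after the stop. Because the transcript of the shorter ORF lacks the longer start, these scores compare 2 transcript models as well as 2 start codons.

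Txn1, Prdx1 and Srxn1 each had a single ORF. Txn1 had 105 residues (chromosome 4, 57956777 to 57969082, minus strand), a score of 970 and a leader of 201 bases. Prdx1 had 199 residues (chromosome 4, 116360023 to 116371861, plus strand) and the highest score of the 17 ORFs, 988, which 4.1% of families exceeded with their longest ORF. Its leader of 404 bases held a splice junction, as the leader of the longest ORF did in 38.4% of families and in no other member. Srxn1 had 136 residues (chromosome 2, 151931477 to 151934928, plus strand) in only 2 coding exons, with a score of 986. These 3 proteins were the shortest of the members, and 94.0% of families had a longest ORF above that of Txn1.

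Over the 10 members together, upstream ORFs were missing and in-frame starts were not. No member had an upstream ORF, one that starts before the longest ORF and shares no in-frame codon with it, against 20.2% of families. With 0 of 10 genes, the exact Clopper-Pearson interval at the 95% level reaches 30.8%, above the share of all families, so at this number of genes no difference from the list could be seen. Leaders of 7 members were at least 200 and under 500 bases, a range in which 27.6% of families had an upstream ORF.

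Another in-frame start was listed in 3 of the 10 genes, Keap1, Gclm and Txnrd1 (interval 6.67 to 65.2%), near the 23% of all families. Of the 2396 families with such a start, 45.9% had one that scored above the longest ORF, as Gclm and Txnrd1 did. A splice variant with the start and stop of the longest ORF was listed in 1 member, Nqo1, and in 17.7% of families. A single ORF was listed in 6 of 10 members (interval 26.2 to 87.8%) and in 43.7% of families. For upstream, in-frame, spliced (interval 0.253 to 44.5%) and single ORFs alike, the interval over the members holds the share of all families, so none of these counts sets the members apart. Intervals cover counting error over genes only.

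Scores of the longest ORFs had a median of 971.5 over the 10 members and 926 over all families, with quartiles of 800 and 968 in the latter. A score of 900 or more was reached by the longest ORF of 8 members (interval 44.4 to 97.5%) and of 56.7% of families. When the highest score of each family was taken, 9 of 10 members and 65.1% of families reached 900, the exception being Gclm at 843. Prdx1, Srxn1, Nfe2l2 and Nqo1 lay within 3 points of each other, from 985 to 988, and the list gives no error by which their order could be judged. Longest ORFs of the members had a median of 292.5 residues against 435, with 4 of the 10 above the median of the list. They had a median of 5 coding exons against 8, and leaders a median of 252.5 bases against 186. The stretch after the stop had a median of 1105 bases against 1116. The interval of the members' median, from the 2nd to the 9th value, held the median of all families for score (763 to 986), residues (136 to 637), coding exons (5 to 16), leader (133 to 404 bases) and bases after the stop (532 to 2184). Stops lay in the last exon for all 10 longest ORFs. A junction after the stop was thus listed for 0 of 10 members (interval to 30.8%) and for 10.4% of families, a share that the interval holds.

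**Figure D3:**
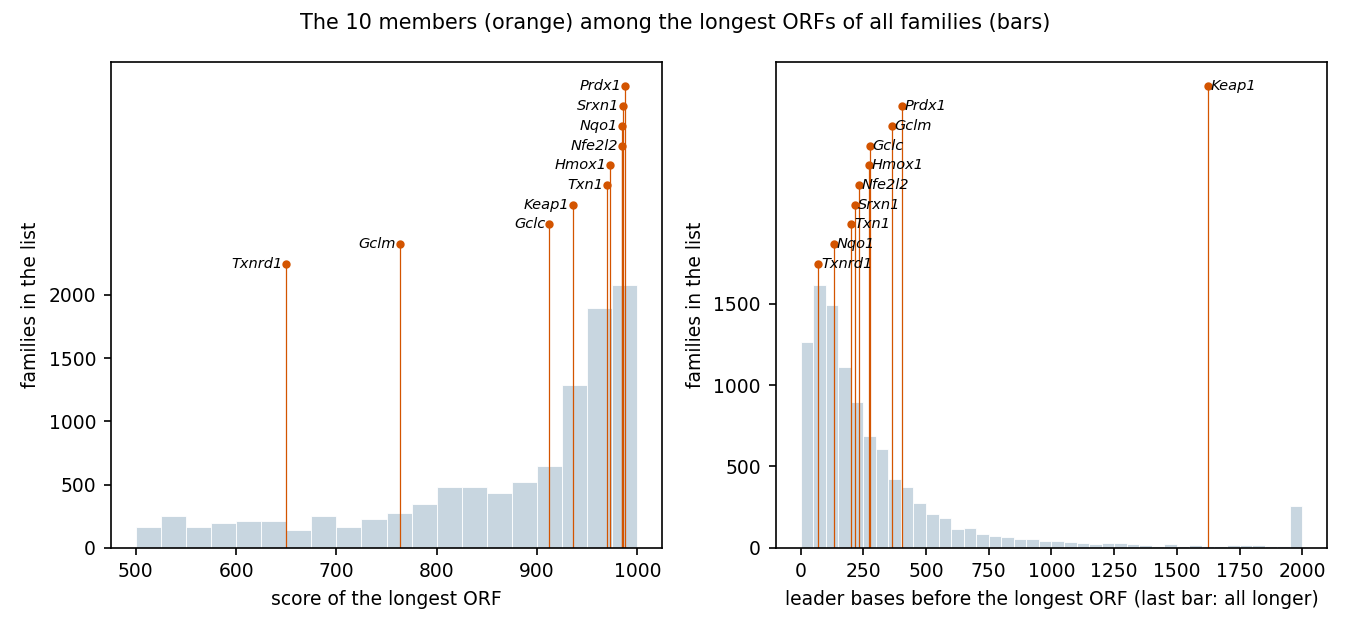
Bars count the longest ORFs of all 10418 families by score (left) and by leader length in bases (right, where the last bar collects all longer leaders), and orange lines mark the 10 members. Txnrd1 (650) and Gclm (763) lie apart from the other members in score, and Keap1 (1623 bases) in leader length.

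Other genes of the pathway were taken from a list of 44 that does not contain the members, and 41 of them had a family of that name. Slc40a1, the iron exporter, and Prdx5 had none, and Mafg, a small MAF partner of NRF2, was listed only under a numbered name. An upstream ORF was listed in 8 of the 41 (19.5%, interval 8.82 to 34.9%) and another in-frame start in 7 (17.1%, interval 7.15 to 32.1%). Both shares were near those of all families. Longest ORFs had a median score of 966, close to that of the members.

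Upstream ORFs were listed in 4 of 8 partners and regulators of NRF2 (interval 15.7 to 84.3%), in 3 of 10 glutathione genes (6.67 to 65.2%) and in 1 of 3 superoxide and peroxide genes (0.84 to 90.6%). They were listed in 0 of 6 genes of NADPH supply (to 45.9%), 0 of 5 of heme and iron (to 52.2%) and 0 of 9 other thioredoxins and peroxiredoxins (to 33.6%). Each of these intervals holds the share of all families, so no group is set apart. Bach1, a repressor that competes with NRF2 for its elements, had ORFs of 21 and 16 residues over the start of its 739-residue ORF, with scores of 927 and 834 against 658. Nfe2l1, a relative of NRF2, had upstream ORFs of 25 and 9 residues that scored 917 and 968, the latter above the 962 of its 741-residue ORF. Cul3, the ligase scaffold that KEAP1 uses, had upstream ORFs of 81 and 15 residues with scores of 782 and 647. Gsk3b, a kinase that marks NRF2 for degradation, had 3 with scores from 521 to 833. The cystine transporter gene Slc7a11 had a 35-residue upstream ORF that scored 823 against 987 for its 502-residue ORF. Gpx4 was counted for a 45-residue ORF that scored 984 against 625 for its 112-residue ORF. Its class as upstream rests on taking the longest ORF as main, which was not tested. With the highest-scoring ORF as main, 7 pathway genes and 16.4% of families had an upstream ORF. Sod2, mitochondrial superoxide dismutase, had a 7-residue ORF that scored 655. In the family listed under the name of glutathione synthetase (Gss), the longest ORF had only 71 residues and a score of 522. An upstream ORF of 51 residues scored 503, and one of 28 residues over the start scored 974. A 10-residue ORF with a score of 982 lay downstream of the 71-residue ORF. All ORFs of this family lay on the plus strand of chromosome 2. Whether that is the strand of the glutathione synthetase gene, and whether a longer coding sequence of Gss lies beside these ORFs, was not tested. The counts of genes with an upstream ORF include this family.

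The 6 NADPH genes included Pgd, whose score equalled the highest of the whole list, and G6pdx and Taldo1 at 987. Fth1, the ferritin heavy chain, had 182 residues and the same score as Pgd. So did the longest ORFs of Gstm1, among the glutathione genes, and Prdx2, among the other peroxiredoxins, so this score was not particular to NADPH or iron genes. As in Txnrd1, a start inside the longest ORF scored higher in Idh1, an NADPH-making dehydrogenase (414 residues at 934 against 435 at 600), and in Mafk (156 residues at 964 against 218 at 749). As in Keap1, it scored lower in Sod2 (192 residues at 514 against 222 at 988), in the glutathione transferase Gsto1 (212 at 575 against 240 at 951), in mitochondrial thioredoxin Txn2 (156 at 651 and 135 at 535 against 166 at 945), in Bach1 (26 at 602 against 739 at 658) and in Fech (422 at 585 and 23 at 580 against 427 at 789). The third other start of Fech, of a 409-residue ORF that scored 539, lay 70 bases before that of the longest ORF in the genome. Some of these pairs were on different listed transcripts. Bases after the stop were 11494 against 12652 for the longest ORF in Sod2, and 1334 against 1533 for the 422-residue ORF of Fech. They were 693 against 534 for the 156-residue ORF of Txn2. In Idh1 the leaders (191 and 106 bases) differed by more than the coding bases between the starts. Such scores compare transcript models as well as starts.

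**Figure D4:**
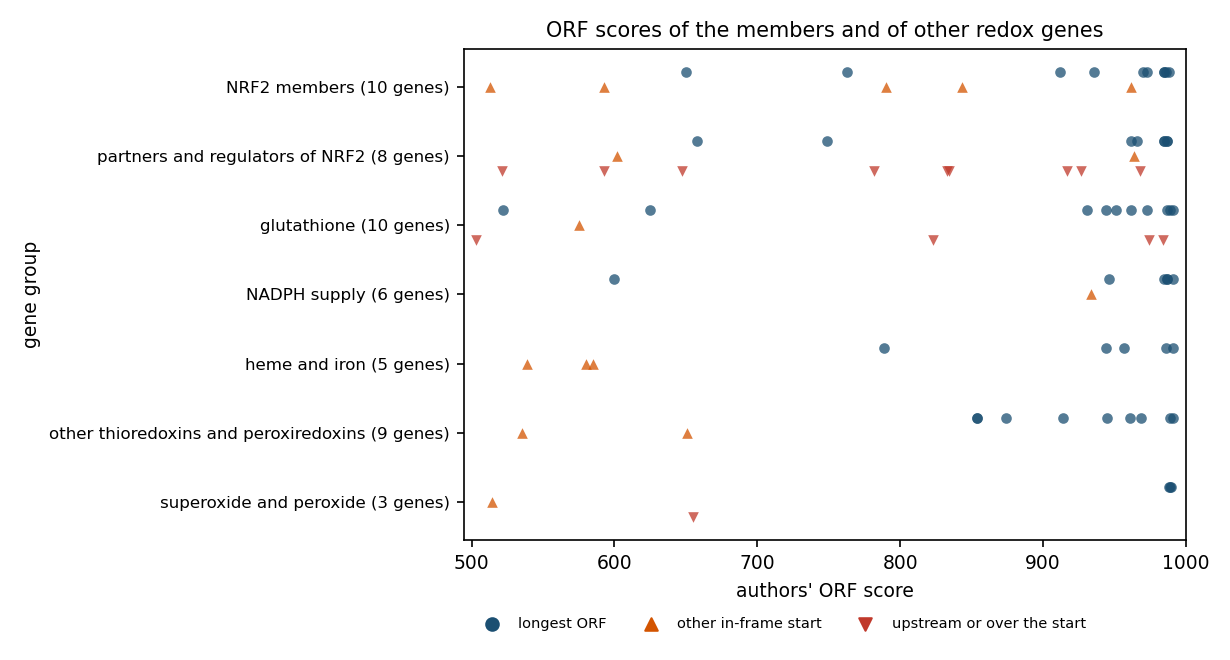
The horizontal axis is the authors' score; rows are the members and the groups of other redox genes with a family, blue circles are longest ORFs, orange triangles other in-frame starts and red triangles upstream ORFs or ORFs over the start. Red symbols are present for partners and regulators of NRF2, for glutathione genes and for Sod2. They are absent in the row of the members and in those of NADPH supply, heme and iron, and other thioredoxins and peroxiredoxins.

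For families of like composition, 4548 others had a single ORF as the 6 single-ORF members did, and 1016 had 1 longest ORF with 1 other in-frame start as Keap1 and Txnrd1 did. Nearest in length were Foxj3 (623 residues), Nuak2 (628) and Pgm1 (620) for Keap1 and Pck2 (667 residues), 1300018J18Rik (664) and Tm9sf2 (662) for Txnrd1. A pair with one start and stop, as in Nqo1, was listed in 746 others, of which Slbp (275 residues), Gnpda2 (276) and Dguok (277) were nearest.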

How the data were processed

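The 37 libraries were placed in 28 groups from their titles. Per the labels, 1 list of ORFs was made from all of them. Bowtie2, TopHat and mm9 are named, with no version or role, in the submitters' processing notes; how ORFs were called, and on which transcript models, is not given in the sources used here. Each deposited score is a whole number of at least 500 assigned by the authors.

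Families were formed from ORF names and split by chromosome and strand. Within each, the ORF with most residues served as main ORF (equal lengths were resolved by score and name), and others were classed by position and frame against it (Python 3.11.15, pandas 2.3.3). Residues exclude the stop codon. Intervals are exact Clopper-Pearson (scipy 1.17.1). No test was run, since ORFs and genes are not replicates. On simulated data of 500 families, the class was recovered for 3500 of 3500 ORFs. Each simulated family had a single transcript and no splice variant or isoform, so classes that rest on differing transcripts were not checked. True classes followed the same rules of position and frame, so the result checks the code only. Names and promoter windows came from RefSeq (GRCm38.p6). Members and lists were chosen with earlier results of these data known, and the motif search and the leader ranges after the list was seen. Named were the 10 members, pathway genes with other in-frame starts or upstream ORFs, and pathway genes with none listed. For each ORF pattern, the 3 families nearest in length were named too. The text names a part of these, and Pgd, G6pdx, Taldo1, Fth1, Gstm1 and Prdx2 were added after their values were seen.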

Additional observations from a re-analysis of the deposited data

How the results depend on the processing

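No replicate or value per library exists, so depth limits cannot be given, and no replicate could be left out. No paired analysis was possible because the list carries no replicate columns. Over 43 alternative values, 30 stayed within 1.5 times the count or within the interval of the median and 13 moved. The number of members with an upstream ORF was 0 under all 7 alternatives run on it. Most of these only drop ORFs or narrow the class, so a count of 0 could hardly rise and its stability is no support. The median score (971.5 to 973.0) and length (281.5 to 292.5) of the members' main ORFs stayed within their intervals. With a score of 900 or more, and likewise at or above the median score of 847, the members kept 10 ORFs in 9 genes, 0 members and 0 pathway genes had another in-frame start, and 1 pathway gene had an upstream ORF. The families' share with an in-frame start was then 0.427% and 1.2%, and that with an upstream ORF 5.7% and 7.92%. With 30 residues or more, 5 pathway genes had an upstream ORF, as did 8.6% of families. With 1 ORF per stop codon, the members had 11 ORFs and, by construction, 0 members and 0 pathway genes had another in-frame start. With splice variants counted too, 13 pathway genes did, and 4 members, as did 37.8% of families. Joining numbered families, chosen after seeing the data, gave 9 pathway genes with an upstream ORF, beside 20.2% of families. The RefSeq protein as the choice of the main ORF, and the comparison of selenoprotein lengths with its tolerance, were not run because no protein table was used here.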

Other observations

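Several genes of the pathway encode selenoproteins, whose selenocysteine is coded by UGA, otherwise a stop codon. Their listed ORFs were as follows. Txnrd1 had 666 and 497 residues, and Txnrd3 had 650 residues with a score of 854. The stop of the 650-residue ORF and that of the 666-residue ORF both lay 63 bases after the last junction of their transcripts. The stop of Txn1 lay at the same distance, so it was not particular to the reductases. Txnrd2, the mitochondrial reductase, had splice variants of 525 and 494 residues with a score of 914, and there the last junction lay 83 bases after the stop. Gpx1, a glutathione peroxidase, had ORFs of only 46 and 23 residues from one start, with a score of 989 that is above those of all 17 member ORFs, and 671 transcript bases followed the stop of the longer. Gpx4, which reduces lipid peroxides, had a 45-residue ORF that scored 984 and was classed as upstream of a 112-residue ORF that scored 625. Whether these stops are selenocysteine codons was not tested, since no transcript or protein sequence was used here.

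The family numbered as Mafg held ORFs of 402, 382, 171, 162 and 4 residues. The 171-residue and 162-residue ORFs scored 958 and 731 and were classed as upstream of the 402-residue ORF, which scored 986. Which of them encodes the small MAF protein was not tested.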
